A study of Mus musculus with 4 samples.

Results

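The genes described here carry the type I interferon signal from the cell surface to the nucleus: the receptor chains Ifnar1 and Ifnar2, the kinases Jak1 and Tyk2, the transcription factor Stat2, and the interferon regulatory factors Irf1, Irf3, Irf7 and Irf9. They were chosen by name, as every probe set that the platform annotation gives to one of these symbols, and came to 9 of the 18193 genes measured. K7M2, a highly metastatic mouse osteosarcoma line kept in DMEM with fetal bovine serum, was profiled on one-colour Affymetrix arrays. A single array came from cells over-expressing GFP and 3 arrays, numbered as replicates 1 to 3, from cells over-expressing ezrinT567A-GFP, so that GFP was present in both groups. Ezrin ties membrane proteins to the actin cortex, and ezrinT567A carries alanine in place of its regulatory threonine near the C terminus, a change that blocks phosphorylation there. The labels give neither the species of the ezrin sequence nor whether each culture was 1 clone or a pool, and they do not say that the 3 replicates were separate cultures, so the p-values below measure only the spread between these arrays.

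Type I interferons bind a receptor made of both Ifnar chains. Tyk2, which docks on Ifnar1, and Jak1, which docks on Ifnar2, then phosphorylate STAT proteins. Phosphorylated Stat2 joins a partner STAT and Irf9 in the complex ISGF3, which binds interferon-stimulated response elements (ISREs) in the promoters of interferon-induced genes. Irf3 is made constitutively and is activated by phosphorylation after foreign nucleic acid is sensed, while Irf7 is itself induced by interferon and drives further interferon-alpha genes. Irf1 is best known as a target of STAT dimers, which bind gamma-activated sites (GAS). In many cell types Stat2, Irf1, Irf7 and Irf9 are interferon-induced genes, and they are called the induced factors here, whereas the receptors and kinases are mostly regarded as constitutive.

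The promoters were searched first, because the known binding sites of these pathways give a way to see how the members differ. RefSeq windows (GRCm38.p6) running from 250 bases before to 50 bases after each annotated start were found for all 9 genes, in 11 windows. Both strands were searched for the ISRE core, which is GAAA, any 2 bases and GAAA again, and for the GAS core TTCNNNGAA. The ISRE core was present for 1 of the 9 genes, Stat2, and for 3.99% of the 27025 genes with a window (3.44% of all 32851 windows). The GAS core was present for 3 of the 9, Irf1, Ifnar1 and Ifnar2, and for 9.55% of those genes (8.3% of all windows). The 4 matches are shown with their flanking bases, with the match in capitals, because they are the places where the members' promoters carry the letters of these motifs. All 4 genes lie on the + strand, and the Stat2 match reads as the reverse complement of the core.
Stat2, ISRE, chr10:128270266-128270295: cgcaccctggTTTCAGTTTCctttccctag
Irf1, GAS, chr11:53769914-53769942: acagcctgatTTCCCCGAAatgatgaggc
Ifnar2, GAS, chr16:91372559-91372587: tgccaaggccTTCCTGGAAgaagagagta
Ifnar1, GAS, chr16:91485200-91485228: ggcgggggcgTTCACGGAAggggcggggc
Counted from the annotated start, the Stat2 match covers bases -222 to -213, the Irf1 match -90 to -82, the Ifnar2 match -214 to -206 and the Ifnar1 match -5 to 4. The Stat2 window also overlaps the annotated span of its neighbour Apof, and the Ifnar2 window that of Gm36587. A match describes letters only and is not evidence of binding.

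The windows of Irf1 and Irf7 are shown at greater length, since these are an induced factor with a small difference and one with a large difference in the arrays. For Irf1 the 250 bases before the start hold the GAS match. For Irf7, on the - strand, the 175 bases that lie outside every annotated Irf7 transcript are given, and neither core was found anywhere in its window.
Irf1, chr11:53769764-53770013: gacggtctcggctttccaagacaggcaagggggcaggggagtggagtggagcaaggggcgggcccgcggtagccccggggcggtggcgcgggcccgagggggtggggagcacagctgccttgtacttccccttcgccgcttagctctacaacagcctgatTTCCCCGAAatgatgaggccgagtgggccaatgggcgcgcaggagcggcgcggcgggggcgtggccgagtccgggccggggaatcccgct
Irf7, chr7:141266500-141266674: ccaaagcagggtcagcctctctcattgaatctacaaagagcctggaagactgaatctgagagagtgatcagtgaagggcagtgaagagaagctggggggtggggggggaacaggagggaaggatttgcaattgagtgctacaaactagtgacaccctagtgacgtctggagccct

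All values below are RMA expression levels on the log2 scale, and a difference is the ezrinT567A-GFP mean minus GFP, so that a difference of 1 is 2-fold. Array medians lay between 3.85 and 3.89, and the median level over all genes was 5.04. The median gene differed by 0.03 between the groups. Hybridization spike-ins, which carry no RNA of the cells, averaged 9.32 on the GFP array and 10.1, 11.1 and 10.4 on replicates 1, 2 and 3. The 18S rRNA probe sets averaged 9.09 on the GFP array and 7.65, 11.3 and 7.76 on replicates 1, 2 and 3, so that replicate 2 stood apart. The osteoblast-lineage collagen genes Col1a1 and Col1a2 were at 11.2 to 12.5 on all 4 arrays, Sp7 at 5.05 to 5.41, and Alpl and Ibsp at 2.74 to 4.02. Of 8 macrophage markers 2 lay above the median of all genes, Csf1r at 11.9 to 12.2 and Cd14 at 7.16 in GFP and 8.12, 8.18 and 8.01 in ezrinT567A-GFP, while Ptprc was at 2.10 to 2.22 and Adgre1 at 2.64 to 2.76. None of the 7 measured lymphocyte and NK markers and none of the 5 endothelial markers lay above that median. The plasmacytoid dendritic list had 2 of 5 above it, Tcf4 and the interferon-induced Bst2, both higher on all 3 ezrinT567A-GFP arrays, with Siglech at 3.59 to 3.75. Cd14 thus moved with the groups, and so did the keratinocyte markers, with all 7 lower on all 3 ezrinT567A-GFP arrays and a summed linear level of 697 in GFP against 93.5 to 138 in ezrinT567A-GFP. Their part in the results below was not tested.

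The 9 genes did not behave alike. Of the 9, 8 were higher than GFP on all 3 ezrinT567A-GFP arrays, which was so for 32.5% of all genes, and 0 were lower on all 3, against 25.6% of all genes. Irf3 was the exception. Stat2 and Irf7 were at least 2-fold higher, as were 0.973% of all genes. Averaged over the 4 arrays, all 9 members lay above the median level of all genes. Of the genes above that median, 37% were higher than GFP on all 3 arrays and 1.66% were at least 2-fold higher. The receptors and kinases ranged from 0.29 (Jak1) to 0.68 (Ifnar2), with a median of 0.57 over the 4 genes. The induced factors ranged from 0.41 (Irf1) to 2.003 (Stat2), with a median of 1.16. No member was called by limma, which at an adjusted limit of 0.05 called 0 of the 18193 genes (0%). At an unadjusted limit of 0.05 limma called 2540 genes (14%), of which 1357 were higher (7.46% of all genes) and 1183 lower (6.5%). Among the members 7 of 9 met that unadjusted limit, all on the higher side.

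**Figure D1:**
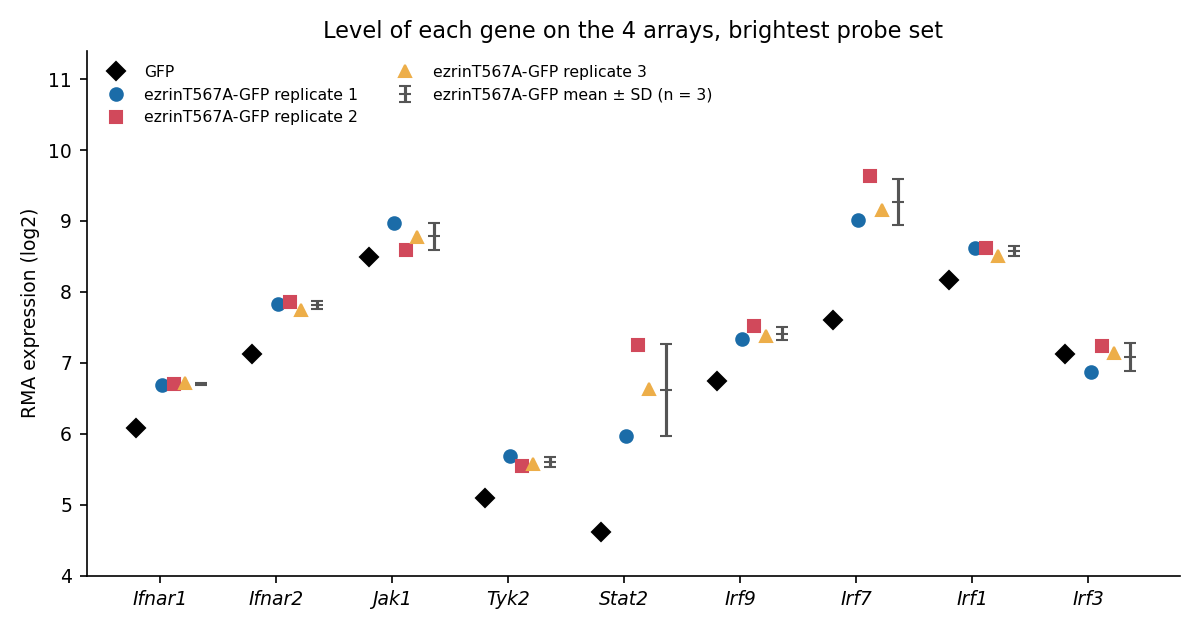
Expression level (RMA, log2, vertical axis) of the 9 genes on the GFP array (black diamond) and on ezrinT567A-GFP replicates 1 to 3 (coloured symbols), with the ezrinT567A-GFP mean ± SD (n = 3) at the right of each gene. GFP is the lowest point for 8 genes and lies among the ezrinT567A-GFP arrays for Irf3.

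The receptor chain Ifnar1, which docks Tyk2, was at 6.08 in GFP and at 6.69, 6.70 and 6.71 in ezrinT567A-GFP replicates 1, 2 and 3. The 3 ezrinT567A-GFP arrays were nearly equal and all above GFP. The difference was 0.62 (SE 0.11, limma adjusted p = 0.227), or 1.54-fold, and exceeded the SD between the 3 arrays of 0.01. Ifnar2, the chain that docks Jak1, was at 7.13 in GFP and at 7.83, 7.85 and 7.75 in replicates 1, 2 and 3. Again all 3 arrays lay above GFP. The difference of 0.68 (SE 0.12, limma adjusted p = 0.218), or 1.60-fold, was larger than the SD of 0.06. The SDs of both chains leave out the variation of the single GFP array.

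Jak1, a kinase shared by many cytokine receptors, was at 8.50 in GFP and at 8.97, 8.60 and 8.78 in replicates 1, 2 and 3. Replicate 2 lay close to GFP and replicate 1 furthest from it. Its difference of 0.29 (SE 0.18, limma adjusted p = 0.556) had an interval of -0.20 to 0.77 and was the smallest of the 4 upstream genes. Leaving out replicate 1 gave 0.19, and leaving out replicate 2 gave 0.38. Tyk2, the kinase partnered with Ifnar1, was at 5.09 in GFP and at 5.69, 5.54 and 5.58 in replicates 1, 2 and 3. All 3 arrays were above GFP, by 0.51 on average (SE 0.13, limma adjusted p = 0.276), from a GFP level near the median of all genes.

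Stat2, which brings the activation domain to ISGF3, showed the largest difference of the 9. It was at 4.62 in GFP and at 5.97, 7.26 and 6.63 in replicates 1, 2 and 3. The single GFP array lay far below the others, but the 3 ezrinT567A-GFP arrays were also the most spread of any member (SD 0.64). The difference was 2.003 (SE 0.52, limma adjusted p = 0.280), or 4.01-fold, with a 95% interval of 0.58 to 3.43. The GFP level lay below the median of all genes, so the size of the difference depends on how far that value stood above background, which was not analysed here.

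Irf9, the DNA-binding subunit of ISGF3, was at 6.75 in GFP and at 7.34, 7.52 and 7.38 in replicates 1, 2 and 3. It was higher on every ezrinT567A-GFP array, by 0.66 (SE 0.13, limma adjusted p = 0.234), or 1.58-fold. This is a difference of the size seen for the receptor chains rather than for Stat2, its partner in the complex.

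Irf7, which amplifies interferon-alpha production, was at 7.61 in GFP and at 9.01, 9.64 and 9.15 in replicates 1, 2 and 3. Replicate 2 was the highest, and the lowest ezrinT567A-GFP array still stood 1.40 above GFP. The difference was 1.66 (SE 0.28, limma adjusted p = 0.218), or 3.15-fold, with a 95% interval of 0.90 to 2.41. Irf1, an activator with its own set of targets in antigen presentation, was at 8.17 in GFP and at 8.62, 8.62 and 8.50 in replicates 1, 2 and 3. The 3 arrays lay together above GFP, with a difference of 0.41 (SE 0.11, limma adjusted p = 0.286), or 1.33-fold, the smallest among the induced factors.

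Irf3, the constitutive factor, was at 7.12 in GFP and at 6.87, 7.24 and 7.13 in replicates 1, 2 and 3. The GFP array fell within the ezrinT567A-GFP arrays. The difference was -0.04 (SE 0.19, limma adjusted p = 0.947), with a 95% interval of -0.55 to 0.47, which still includes differences of the size seen for Irf1. Irf3 and Irf7 are related factors that act after nucleic acid sensing, and by the brightest probe set of each only Irf7 stood apart from GFP. A dimmer Irf3 probe set was above GFP on all 3 arrays, by 0.55 on average. The difference between Irf3 and Irf7 was not tested.

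**Figure D2:**
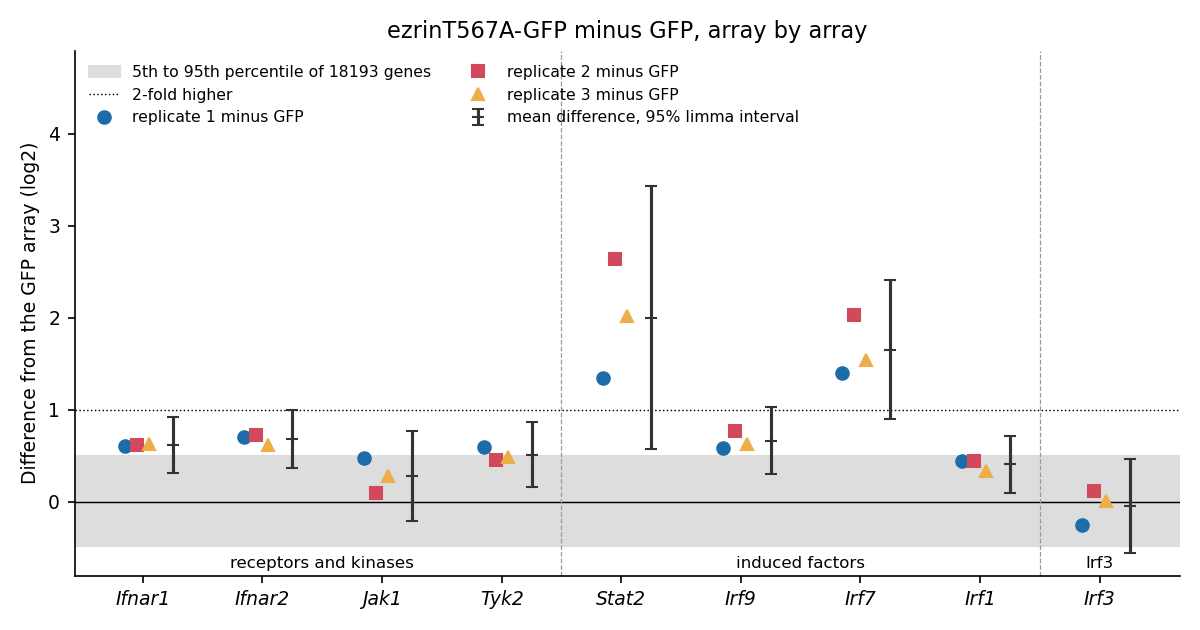
Difference of each ezrinT567A-GFP array from the GFP array (log2, vertical axis) for the 9 genes, with the mean difference and its 95% limma interval, and the band from the 5th to the 95th percentile of all 18193 genes (-0.48 to 0.50) in grey. Ifnar1 and Ifnar2 lie just above the band on all 3 arrays, Tyk2 straddles its upper edge, Jak1 lies within it, Stat2 and Irf7 lie above the 2-fold line on all 3 arrays, and Irf3 lies around 0.

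The upstream genes and the induced factors were set side by side array by array. For the receptors and kinases the median difference from GFP was 0.60, 0.54 and 0.55 in replicates 1, 2 and 3 (0.56 ± 0.04, SD, n = 3). For the induced factors it was 0.97, 1.40 and 1.08 (1.15 ± 0.22, SD, n = 3). The median of the induced factors therefore lay above that of the upstream genes by 0.37, 0.86 and 0.53. This holds for the medians only, and all 3 values subtract the same single GFP array, whose own variation the SDs leave out. Stat2 and Irf7 exceeded every upstream gene, whereas Irf9 (0.66) lay between Ifnar1 and Ifnar2 and Irf1 (0.41) lay below Ifnar1, Ifnar2 and Tyk2. The median of all genes was 0.03, 0.03 and 0.01 in the same arrays. Stat2, Irf7, Irf9 and Irf3 were highest in replicate 2, then 3, then 1, which is also the order of the spike-in and 18S rRNA signals. The other members had other orders: Jak1 and Tyk2 were highest in replicate 1 and lowest in replicate 2, Ifnar2 and Irf1 were highest in replicate 2 and lowest in replicate 3, and Ifnar1 was nearly equal in all 3. The part of the spike-in and 18S rRNA signals in these orders was not tested. No test of these set medians was made, because the members were chosen by name with earlier results known.

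The gap between the roles changed with a spike-in covariate and with the choice of members. When the mean spike-in signal entered the fit as a covariate, the Stat2 difference was 0.53 and the Irf7 difference 0.87, against 0.62 for Ifnar1 and 0.63 for Ifnar2. Under that fit 0 of the 9 genes were 2-fold higher, and the induced factors lay below the upstream genes by 0.16 (a value of -0.16). The GFP spike-in level lay outside the range of the other 3 arrays and the fit left 1 residual degree of freedom, so that covariate extrapolates. The part of the spike-in signal in the gap was not tested. With Irf3 counted among the induced factors the gap was 0.10, and with Irf1 left out it was 1.09.

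Most members are read by more than 1 probe set, and these bore on the sizes more than on the direction. The 9 genes have 19 probe sets, of which 18 had a mean above GFP and 15 had all 3 arrays above it. A further Stat2 probe set, at 3.82 in GFP and 5.60, 6.45 and 6.09 in replicates 1, 2 and 3, gave a difference of 2.23 (SE 0.36, limma adjusted p over all probe sets = 0.294). It repeated the order of the arrays seen with the brighter one. The other Jak1 probe sets gave 0.28 and 0.25, close to the 0.29 of the brightest, though the dimmest had replicate 3 below GFP.

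The receptor probe sets were less uniform. A dim Ifnar1 probe set, at 2.85 in GFP, gave 0.05, and those of Ifnar2 at 4.68 and 2.94 gave 0.27 and 0.34. The other Tyk2 probe set, also at 5.09 in GFP, gave 0.14 against 0.51. Irf3 gave 0.04 with a probe set at 5.98, 0.09 with one at 3.51 and 0.55 with one at 3.57, where all 3 arrays were above GFP (4.05, 4.22 and 4.08). The sign for Irf3 thus differed between its brightest probe set and the other 3. When all probe sets of a gene were averaged, the median of the receptors and kinases was 0.33 and that of the induced factors stayed at 1.16. Irf1, Irf7 and Irf9 each have 1 probe set, of the _a_at kind, and so have no such check.

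**Figure D3:**
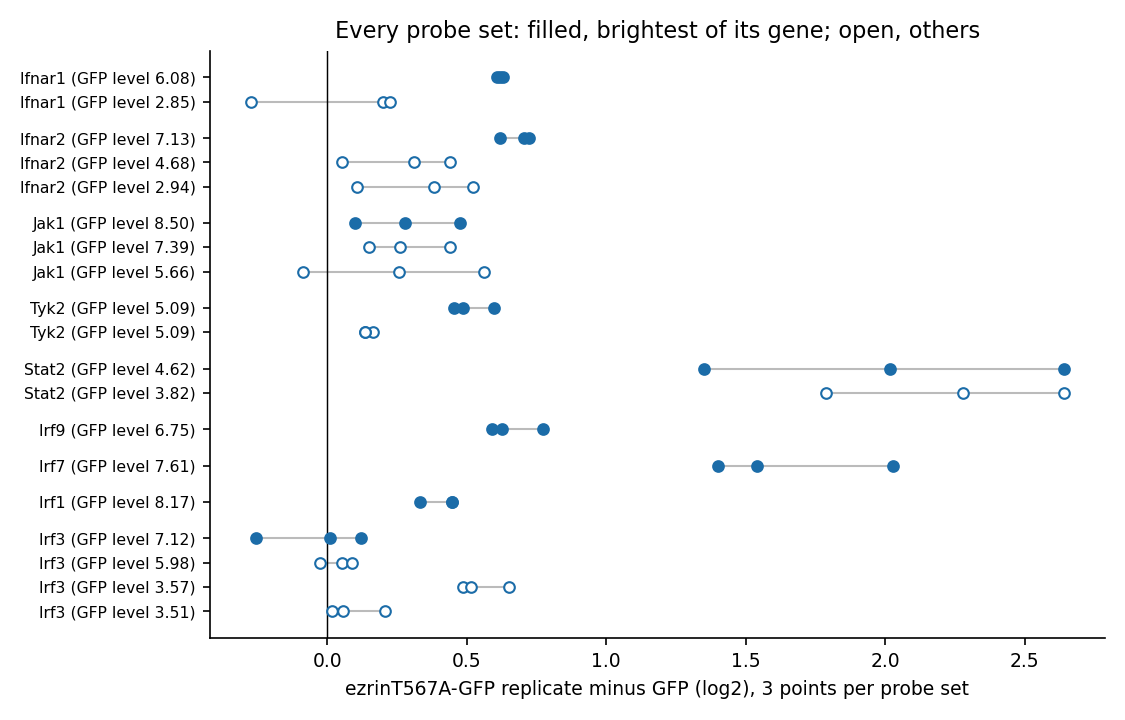
Difference of each ezrinT567A-GFP replicate from GFP (log2, horizontal axis) for all 19 probe sets of the 9 genes, with 3 points per probe set joined by a line. Filled points mark the brightest probe set of a gene and open points the others, and the GFP level stands in the label. Both Stat2 probe sets lie above 1.3 throughout, whereas the dimmer Ifnar1, Ifnar2 and Irf3 probe sets differ from the brightest of their gene.

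The remaining genes of the pathway were set beside the members. Of 67 other measured genes, listed by role, 0 passed limma's adjusted test, and the median difference was 0.15. At an unadjusted limma p under 0.05, 21 of them were higher and 1 lower, against 7.46% and 6.5% of all genes. Among 9 type I interferon genes the median was 0.12. Ifnb1, the gene for interferon-beta, was at 3.58 in GFP and 0.46, 0.93 and 0.50 higher in replicates 1, 2 and 3, and Ifna4 (0.42, SE 0.14) and Ifnz (0.62, SE 0.22) were also higher on all 3 arrays. In all 4 of the 9 were above GFP on all 3 arrays, as were 32.5% of all genes. Below it on all 3 were 2, Ifna11 (-0.25) and Ifna2 (-0.13), as were 25.6% of all genes. All 9 ligand levels in GFP lay below the median of all genes, where values may be background.

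The receptors of other interferons and related cytokines did not follow Ifnar1 and Ifnar2 as a group. Il10rb, a chain of the interleukin-10 and interferon-lambda receptors, was 0.77 higher (SE 0.12, limma adjusted p = 0.200), although a second of its probe sets gave -0.04. Ifngr1, the ligand-binding chain for interferon-gamma, was at -0.42 (SE 0.25), and its partner Ifngr2 at 0.11 (SE 0.12). Il10rb and Ifngr2 neighbour Ifnar1 and Ifnar2 on chromosome 16. Around Ifnar1, the 20 nearest genes expressed above the overall gene median, Ifnar2 among them, had a median difference of 0.29, and 15 of them were above GFP on all 3 arrays. The 285 other such genes of the chromosome, these 20 included, had a median of 0.16. Of all such genes 37% were above GFP on all 3 arrays. Around Ifnar2, where most neighbours are the same genes, the median was also 0.29, and around the other members it lay between -0.08 (Jak1) and 0.19 (Irf9). For Irf9 the other such genes of its chromosome had a median of -0.05. Of 20 neighbours, 14 were above GFP on all 3 arrays around Ifnar2 and Irf9, 13 around Irf7 and 11 around Stat2. Around Jak1, Tyk2, Irf3 and Irf1 they were 3, 4, 6 and 9. The part of these neighbours in the values of the members was not tested.

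Other JAKs, STATs and IRFs lay on both sides of GFP. Jak2, which serves the interferon-gamma receptor, was at -0.49 (SE 0.14, limma adjusted p = 0.297), with both of its probe sets below GFP, and Jak3 was at 0.02 (SE 0.12). Stat3, a target of interleukin-6 type cytokines, was 0.63 higher (SE 0.17, limma adjusted p = 0.282; probe sets 0.0036 to 0.63), and Stat5a 0.21 (SE 0.15). Of 4 other IRFs none had an unadjusted p under 0.05 with limma, against 14% of all genes. Irf2 was at 0.03, Irf4 at 0.27, Irf5 at -0.22 and Irf8 at -0.14, but second probe sets gave 0.29 for Irf5 and 0.09 for Irf8. The cofactors Irf2bp2 (-0.28, SE 0.16) and Irf2bpl (-0.31, SE 0.17) were below GFP on all 3 arrays, within about 2 SE. Probe sets of Irf2bpl ranged from -0.31 to 0.16. The kinases Tbk1 (0.21, SE 0.12) and Ikbke (-0.24, SE 0.12), which phosphorylate Irf3 and Irf7, pointed opposite ways.

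Among 13 inhibitors of the pathway 1 was at least 2-fold higher, as were 0.973% of all genes. Usp18, which binds Ifnar2 and dampens the receptor, was at 7.46 in GFP and 2.16, 2.73 and 2.40 higher in replicates 1, 2 and 3 (2.43, SE 0.24, limma adjusted p = 0.187). The feedback inhibitor Socs1 was at -0.19 (SE 0.24) and Socs3 at -0.03 (SE 0.20). Pias2, which binds STATs, was 0.66 higher (SE 0.11), but its probe sets ranged from -0.69 to 0.66.

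Downstream genes were listed by the factor or site they are known for. Each of the 10 measured ISGF3 targets lay above GFP throughout, as did 32.5% of all genes. For 8 of the 10 the mean was at least 2-fold higher, as it was for 0.973% of all genes. Their median difference was 1.74, and the array medians of 1.54, 1.97 and 1.70 had the replicate order of Stat2 and Irf7. Ifit3 led with 2.70 (SE 0.42), followed by Ifit1 (2.38), Rsad2 (2.25), Oasl2 (1.86), Ifit2 (1.83), Cmpk2 (1.65), Rtp4 (1.37) and Mx2 (1.26). A second Rtp4 probe set gave 0.81. Among 14 genes known to lean on interferon-gamma, GAS sites or Irf1, 9 were higher on all 3 arrays, as were 32.5% of all genes, and the median was 0.29. Gbp3 (1.43), Cxcl10 (1.29), Gbp2 (1.28) and Nlrc5 (1.12) were at least 2-fold higher, as were 0.973% of all genes. Cd274 (0.70), Tap1 (0.57), Psmb9 (0.33), Icam1 (0.25) and Ciita (0.23) were higher on all 3 arrays by less. Psmb8 was at -0.14 and B2m at -0.04. Probe sets of Tap1 ranged from 0.0044 to 0.57, of Ciita from -0.13 to 0.23 and of B2m from -0.04 to 0.14. Many of these genes also respond to type I interferon, so the lists are not exclusive, and the difference between them was not tested.

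**Figure D4:**
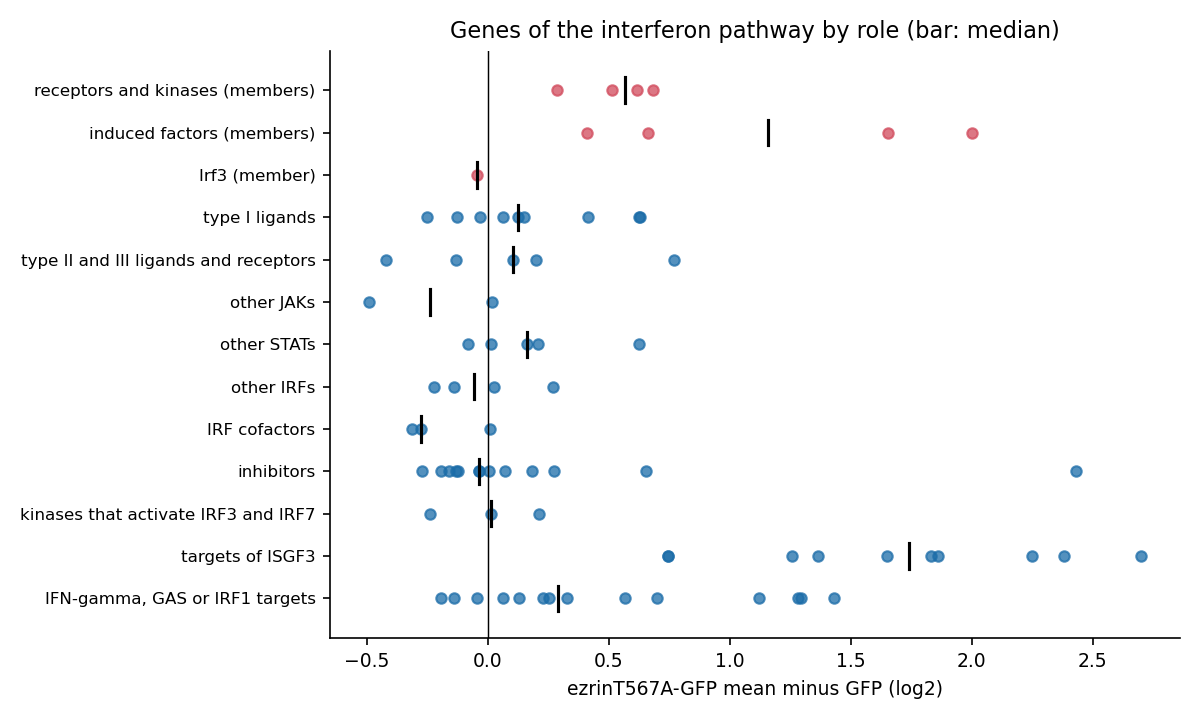
Difference ezrinT567A-GFP mean minus GFP (log2, horizontal axis) for each measured gene of the interferon pathway, by role (vertical axis), with the median of each role as a black bar. The members are in red, with medians of 0.57 for receptors and kinases and 1.16 for induced factors, and the ISGF3 targets have the highest median, 1.74.

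The genes whose 3 differences from GFP lay nearest to those of a member were found by Euclidean distance over the 3 arrays, among all genes. Nearest to Irf7 were Herc6 (distance 0.08), Cmpk2 (0.20), Ogn (0.21) and Fdps (0.24), of which Herc6 and Cmpk2 are interferon-induced, Ogn encodes a matrix proteoglycan and Fdps an enzyme of the mevalonate pathway. Nearest to Stat2 were Trim30d (0.51), Oasl2 (0.51), Tlr3 (0.51) and Gm4951 (0.56). Nearest to Irf9 were Rcn3, Smcr8, Pygb and Tbc1d2, at distances from 0.04 to 0.06. With 3 differences per gene against the same GFP array, such likeness is a description of these arrays only.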

How the data were processed

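The authors deposited one log2 value per probe set and array, made with RMA according to the submitters' processing notes, and the software version is not given in the sources used here. The log2 scale was read from the range, 1.18 to 13.7. RMA brings the arrays to nearly one distribution, so these values cannot show whether cells differed in total RNA. Of 45101 probe sets, 34945 with 1 gene symbol were used. Each of 18193 genes was represented by its brightest probe set over the 4 arrays. Groups came from the over-expression label, and no batch label was given. limma 3.58.1 in R 4.3.3 (lmFit, eBayes with a mean trend) was fitted on all genes, with two-sided p-values adjusted after Benjamini and Hochberg. The spread came from the 3 ezrinT567A-GFP arrays (2 residual degrees of freedom, prior 2.23), which the GFP array was taken to share. An exact permutation of 1 array against 3 cannot go below p = 0.25. SE is the moderated standard error. In 20 simulations of this comparison over 18193 genes, limma called 64.3% of simulated 4-fold changes and 11.6% of 2-fold changes. There were 1.1 false calls per simulation. The simulated GFP array was given the same spread as the ezrinT567A-GFP arrays, and the spreads were shuffled between genes. The spread of the real GFP array is unknown, so these shares hold only under those settings. Members and lists were chosen with earlier results of these data known. All 9 members are named; of the other pathway genes, those at least 2-fold apart on one side of GFP and the smallest p of each role, and further ones named to complete a role were chosen after their values were seen. Figures were drawn with matplotlib 3.10.9.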

Additional observations from a re-analysis of the deposited data

How the results depend on the processing

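Alternatives were quantile normalization, median centring, averaging probe sets, leaving out _s_at, _x_at and _a_at probe sets, leaving out dim genes, other variance models, a spike-in covariate and leaving out each replicate. No paired analysis was possible because the GFP array carries no replicate number. The count of genes past limma's threshold was 0, and became 36 after quantile normalization, 6 after median centring, 6 with the mean of probe sets, 3 without dim genes and 9 with a robust prior; no member was among them, their lowest adjusted p being 0.0871 (Irf7, quantile normalization). No member passed the threshold under any alternative, so the tally that follows reflects direction only. The other variance models and leaving out dim genes do not alter the members' differences, so there the direction could not change. A kept direction is not a kept size: Stat2 was at 0.53 with the spike-in covariate against 2.003 in the main fit. Of 105 member values under alternatives and other probe sets 99 kept their direction and side of the threshold. The 6 others were all of Irf3, at 0.16 with the mean of probe sets, 0.55 with _at probe sets alone, -0.123 to 0.0643 when each replicate was left out (above 0 without replicate 1), and 0.0395, 0.55 and 0.0932 with its other probe sets. With the spike-in covariate 0 members were 2-fold higher, the receptors and kinases had a median of 0.65, the induced factors 0.48 and the gap was -0.16; the cause was not tested. With the mean of probe sets the receptors and kinases had 0.33. With _at probe sets alone 5 members remained and 1 was 2-fold higher, so the medians were 0.51, 2.003 (Stat2 alone) and a gap of 1.49. With Irf3 among the induced factors their median was 0.66 and the gap 0.10, and without Irf1 1.66 and 1.09. Leaving out each replicate gave 0.55 to 0.58 for the receptors and kinases, 1.04 to 1.24 for the induced factors and 0.46 to 0.69 for the gap. Signal over background was not analysed here, so differences of dim probe sets are uncertain.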
